A study of Mus musculus with 20 samples.

Results

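The CpGs described here are the autosomal cytosines that were methylated at 90% or more in every library of the study. They were chosen from the measured values themselves: a CpG had to be listed at both ages and to reach 90% in each of 20 libraries. This left 19697 CpGs of 1108530 autosomal CpGs listed at both ages, or 1.78%. Because the percentages chose them, their levels are given as a description and carry no test.

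The libraries are reduced representation bisulfite sequencing (RRBS) of DNA from mouse brain homogenate that had been enriched for microglia, the resident phagocytes of the brain. RRBS reads bisulfite-converted fragments of an enzyme digest and so covers CpG-rich parts of the genome more fully than CpG-poor ones. HEM mice carry a transgene for full-length wild-type human alpha-synuclein, the main protein of Lewy bodies, driven by the murine Thy-1 promoter and placed on the X chromosome. WT mice are their controls, and all groups share the B6D2F1/J background, whose ancestors are C57BL/6J and DBA/2J mice. At 13 months of age 8 libraries were from HEM and 4 from WT, and at 3 months of age each genotype gave 4. The study's own text counts 3 WT mice at 3 months, whereas 4 libraries are labelled so. The Thy-1 promoter is known for driving transgenes mainly in neurons, and the enriched homogenate can hold other brain cells. The purity of the enrichment was not measured in these DNA files. The deposited values are percentages without read counts, so the depth behind each value is unknown. The study's text calls the samples mice, but no label ties each library to its own animal, so p-values measure only the spread between these libraries.

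In mammals DNA methylation sits mainly on the cytosine of CpG dinucleotides, where Dnmt1 copies it to the new strand after replication and Dnmt3a and Dnmt3b place it on unmethylated DNA. Most CpGs of a mammalian genome are methylated, among them those in the bodies of transcribed genes and in transposons. CpG islands, the CpG-dense stretches at many gene starts, are the usual exception and stay unmethylated in most tissues. Among the known exceptions to that exception are promoters of germline genes, which are methylated and silent in somatic cells.

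Some of the promoter stretches and microRNA hairpins that held such CpGs are shown first, because near-full methylation there lay on or beside a gene start or a small RNA. Sequences are from RefSeq on GRCm38.p6, which is the mm10 build of the files, and run 5′ to 3′ on the strand given. Capitals mark each CG that holds a CpG at 90% or more in every library, and all other bases are in lower case. A CG in lower case may be a listed CpG that missed 90% in some library, or may not be listed at all. Lower case thus does not mean low methylation. The stretches lie at Btbd18 (chr2:84658977-84659078, plus strand), Dnajc5g (chr5:31108245-31108348, plus strand), Asz1 (chr6:18109062-18109161, minus strand), Jade1 (chr3:41555654-41555733, plus strand), Taf1c (chr8:119602647-119602726, minus strand) and Dazl (chr17:50293571-50293600, minus strand).
Btbd18: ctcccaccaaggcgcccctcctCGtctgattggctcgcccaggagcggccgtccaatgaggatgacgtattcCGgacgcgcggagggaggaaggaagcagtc
Dnajc5g: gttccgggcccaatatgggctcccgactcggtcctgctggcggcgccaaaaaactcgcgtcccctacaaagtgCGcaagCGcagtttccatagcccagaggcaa
Asz1: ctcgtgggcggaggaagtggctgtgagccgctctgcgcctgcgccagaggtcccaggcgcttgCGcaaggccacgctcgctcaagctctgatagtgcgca
Jade1: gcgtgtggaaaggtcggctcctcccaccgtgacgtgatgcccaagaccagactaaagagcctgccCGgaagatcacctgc
Taf1c: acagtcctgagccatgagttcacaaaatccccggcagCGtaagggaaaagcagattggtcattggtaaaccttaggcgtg
Dazl: cagtgactcggcgaccctcagcaCGctcgc

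The hairpins are those of named microRNAs: Mir702 (chr5:136991433-136991541, plus strand, inside Plod3), Mir433 (chr12:109591715-109591838, plus strand, inside the interval of the imprinted gene Rtl1) and Mir7677 (chr17:27091245-27091311, plus strand, inside Itpr3). Capitals again mark the near-fully methylated CGs of the DNA, written on the RNA sequence.
Mir702: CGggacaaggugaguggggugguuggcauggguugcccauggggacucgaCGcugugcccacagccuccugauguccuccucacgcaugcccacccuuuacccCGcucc
Mir433: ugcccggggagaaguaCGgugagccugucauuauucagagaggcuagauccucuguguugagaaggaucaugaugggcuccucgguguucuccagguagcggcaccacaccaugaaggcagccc
Mir7677: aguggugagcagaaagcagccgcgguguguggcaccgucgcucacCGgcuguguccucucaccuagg

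The CpGs formed the upper end of a distribution with a large lower mode. Of all 1108530 CpGs, 592857 (53.5%) were at 10% or less in every library, and 825312 (74.5%) reached 90% in none of the 20 libraries. A further 101896 CpGs (9.19%) were at 80% or more in every library but under 90% in at least 1 of them, and these are called the next tier below. The number of CpGs rose again towards the top of the scale of libraries, with 20542 CpGs at 90% or more in 19 libraries and 19697 in all 20. The 90% line cut through a continuous range. The 6872 CpGs whose lowest library lay from 90% to under 91% had a median level of 96.2%, and the 7478 whose lowest library lay from 89% to under 90% had a median level of 95.7%. Raising the line to 95% left 677 CpGs and 100% left 13.

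**Figure D1:**
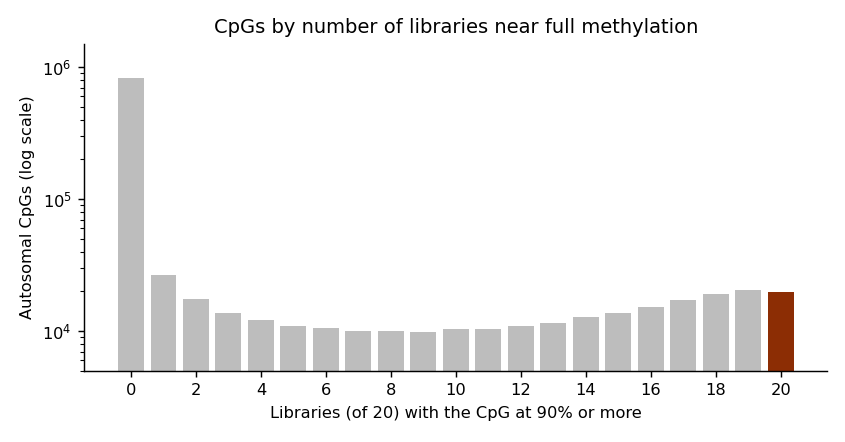
Number of autosomal CpGs (vertical axis, log scale) by the number of libraries, from 0 to 20, in which the CpG was at 90% or more; the 19697 CpGs at 90% or more in every library are the dark bar. The bar at 0 libraries holds 825312 CpGs, and the bars at 19 and 20 libraries hold 20542 and 19697.

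The level of a CpG in this class, averaged over the 20 libraries, had a median of 96.9%, and 90% of the CpGs averaged between 95.02% and 98.5%. The lowest library of a CpG stood at a median of 91.5%. A CpG varied over libraries with a median SD of 2.41 points, a spread that the rule limits. The median CpG read exactly 100% in 3 of the 20 libraries.

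By library, the mean over the 19697 CpGs ran from 96.5% to 97.3%. It was 96.8 ± 0.158% in HEM at 13 months (SD, n = 8), 97.0 ± 0.199% in WT at 13 months (n = 4), 96.9 ± 0.148% in HEM at 3 months (n = 4) and 96.8 ± 0.0870% in WT at 3 months (n = 4). The 4 groups overlapped. The share of the CpGs at exactly 100% spread more widely, from 10.5% in HEM replicate 7 at 13 months to 30.1% in WT replicate 2 at 13 months. At 13 months this share was 16.9 ± 4.12% for HEM against 23.4 ± 5.73% for WT. At 3 months it was 21.2 ± 3.27% for HEM against 21.3 ± 5.54% for WT. Over all listed CpGs the share at exactly 100% was 1.53 ± 0.417% for HEM and 2.32 ± 0.606% for WT at 13 months. There it was 1.83 ± 0.268% and 1.81 ± 0.527% at 3 months, so the gap at 13 months was not particular to the class. A value of exactly 100% can depend on the number of reads, which the files do not give, so the part of depth in this spread was not tested.

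Since every value of the class lies between 90% and 100%, the rule itself bounds the difference between genotypes at 10 points. At 13 months the HEM mean minus the WT mean of a CpG ran from -6.37 to 6.88 points, with 8439 CpGs higher in HEM, 11233 lower and 23 at 5 points or more in either direction. At 3 months it ran from -7.91 to 6.97 points, with 9981 higher, 9672 lower and 102 at 5 points or more. The same counts were not made over all listed CpGs, so they say nothing particular to the class. The means were of 8 HEM and 4 WT libraries at 13 months but 4 of each at 3 months, so the counts do not compare between ages. Each library alone had 12.2% to 15.4% of the listed CpGs at 90% or more, so the requirement of all 20 libraries kept a small part of what each library showed. Of the CpGs at 90% or more in the other 19 libraries, the library left out also had 92.5% to 97.8% at 90% or more. The single library that removed fewest CpGs was HEM replicate 7 at 13 months (441), and the one that removed most was WT replicate 3 at 3 months (1591).

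**Figure D2:**
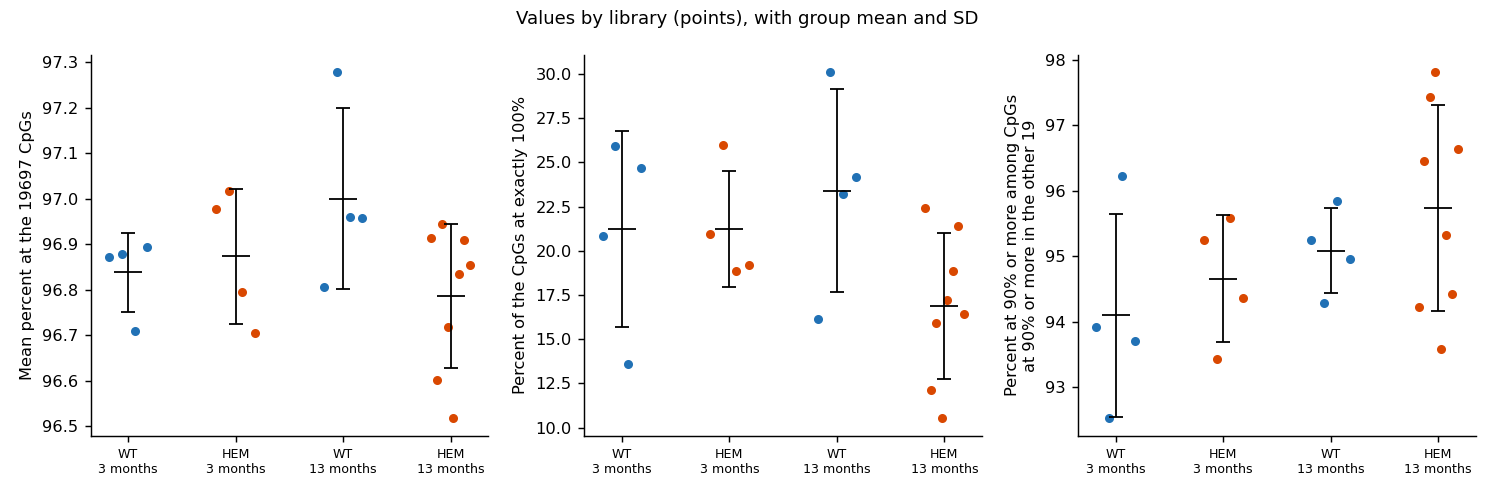
Values of each library (points), with the group mean and SD (bar and whiskers), for WT (blue) and HEM (orange) at 3 and 13 months. The left panel shows the mean percent at the 19697 CpGs, the middle panel the percent of them at exactly 100%, and the right panel the percent at 90% or more among CpGs at 90% or more in the other 19 libraries; the vertical axes do not start at 0. The groups overlap in each panel, and the libraries spread from 10.5% to 30.1% in the middle one.

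Few of the CpGs lay near a gene start. Promoter windows, which reach from 250 bases before to 50 bases after a RefSeq start, were at hand for every autosome but chromosome 18. They held 63 of the 18978 near-fully methylated CpGs on those chromosomes (0.332%), against 0.450% of the next tier, 13.3% of all listed CpGs and 23.3% of the CpGs at 10% or less in every library. The median distance to the nearest start was 24450 bp, against 3245 bp for all listed CpGs and 337 bp for the low class. Within 1000 bp of a start lay 2.35% of the near-fully methylated CpGs and 42.8% of all listed ones. Read the other way, 0.0486% of the CpGs listed up to 250 bp from a start were near full methylation, and this rose with distance to 1.70% between 1000 and 5000 bp and 3.57% beyond 100 kb.

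Gene bodies held a smaller part of the class than of all listed CpGs. Of the 19697 CpGs, 67.4% lay inside an annotated gene, against 67.5% of the next tier, 77.4% of all listed CpGs and 84.6% of the low class. For protein-coding genes the shares were 59.99%, 60.2%, 71.4% and 80.5%. A distance of more than 1 kb from any protein-coding gene was found for 39.0% of the near-fully methylated CpGs and 19.8% of all. The share inside genes varied little when each library was taken alone: among the CpGs at 90% or more in a library it was 67.7 ± 0.622% (SD, n = 20), from 65.8% to 68.5%.

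Density separated the classes more than gene bodies did. A near-fully methylated CpG had a median of 2 other listed CpGs within 100 bp, the same as the next tier, against 8 for all listed CpGs and 15 for the low class. No other listed CpG stood within 100 bp of 17.4% of the class, against 6.52% of all. The class made up 4.74% of CpGs with no listed neighbour within 100 bp, 3.83% with 1 to 2, 2.97% with 3 to 5, 1.32% with 6 to 10, 0.183% with 11 to 20 and 0.00873% with over 20. The low class ran the other way, from 2.79% to 94.4% over the same steps. At equal density the gap in gene bodies narrowed or turned. Among CpGs without a listed neighbour 61.3% of the class and 60.6% of all lay in a gene, with 3 to 5 neighbours 68.9% and 71.6%, and with 11 to 20 neighbours 91.2% and 85.8%. Density here counts listed CpGs, which the digest and the authors' filter on listing also shape, and their part was not tested.

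**Figure D3:**
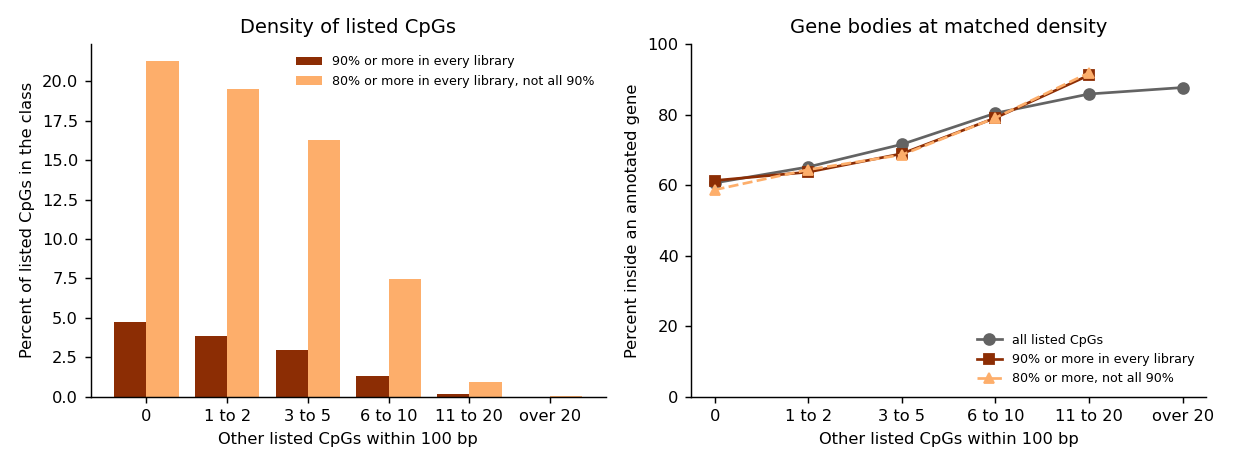
CpGs by the number of other listed CpGs within 100 bp (horizontal axis). The left panel gives the percent of listed CpGs at 90% or more in every library (dark) and in the next tier (light), falling from 4.74% and 21.3% without neighbours to 0.00873% and 0.0385% with over 20; the right panel gives the percent inside an annotated gene for all listed CpGs (grey) and for both classes where a step holds at least 100 near-fully methylated CpGs.

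Along protein-coding genes the class leaned towards the far end. In the 12878 protein-coding genes with listed CpGs and a known strand, the first decile of gene length, counted from the start, held 52.6% of all listed CpGs but 4.99% of the near-fully methylated ones. The last decile held 6.63% of all and 17.6% of the class. The class was 0.139% of listed CpGs in the first decile, 1.20% in the next, 3.07% in the fifth and 4.07% in the ninth, and 3.89% in the last. The next tier had nearly the same course, from 4.90% of its CpGs in the first decile to 18.6% in the last.

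Zinc finger genes, here the 415 genes whose symbols start with Zfp, Zkscan or Zscan, were singled out after their values were seen. Many encode DNA-binding repressors whose finger repeats sit in a long 3′ exon. Their bodies held 409 near-fully methylated CpGs of 14744 listed (2.77%), against 1.47% in other protein-coding genes. Their share was 0.125% in the first decile, 9.20% in the sixth, 8.02% in the seventh, 5.19% in the eighth and 8.69% in the ninth. From the sixth to the ninth decile it was higher than in all coding genes. In the last decile it was 4.14%, near the 3.89% of all coding genes. The promoter windows of zinc finger genes held none of the class in 229 windows, beside 0.183% of the windows of all protein-coding genes. Of the 229, 227 averaged under 10%.

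**Figure D4:**
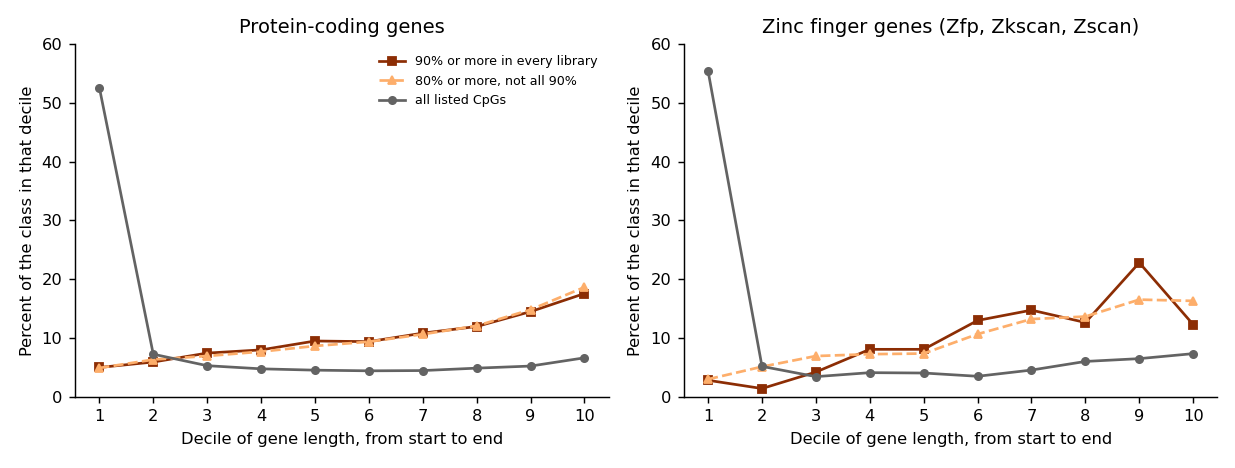
Share of each class of CpGs (vertical axis, percent) by decile of the gene from start to end (horizontal axis), for all protein-coding genes with a known strand (left) and for zinc finger genes (right). All listed CpGs (grey) crowd into the first decile, with 52.6% there in coding genes, whereas the near-fully methylated class (dark) rises from 4.99% in the first decile to 17.6% in the last, and the next tier (light) follows it.

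The class was spread over many genes, mostly a CpG or a few in each. Of 16278 protein-coding genes with a listed CpG, 5000 (30.7%) held at least 1, of which 2436 held exactly 1 and 99 held 10 or more. Genes with such a CpG had a median length of 46879 bp, against 17895 bp for genes with listed CpGs and none of the class. Over protein-coding genes the number in a gene had a Spearman correlation of 0.36 with gene length and 0.31 with the number of listed CpGs. These correlations are across genes, which are not replicates. The 20 gene bodies with the most held 508 CpGs, or 2.58% of the class.

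Plec led with 50 near-fully methylated CpGs of 289 listed (17.3%, chr15:76170974-76231378). It encodes plectin, a large protein that ties intermediate filaments to other parts of the cytoskeleton. Its 50 CpGs lay between 76172822 and 76189261, and their mean was between 96.8% and 98.2% in each of the 20 libraries. Wwox, a very long gene for a WW-domain oxidoreductase, had 43 of 524 (chr8:114439635-115352712), spread over 27 tiles of 1000 bp. Ttn, which encodes the giant sarcomere protein titin, had 32 of 196 (chr2:76703980-76982557), and 26 of these lay in the later part of the gene beyond its midpoint. Of the 20 genes it alone had no CpG at 10% or less in every library.

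Zfhx3, a transcription factor with zinc fingers and homeodomains, had 30 of 671 (chr8:108279311-108961636). All 30 lay beyond the midpoint of the gene, at a median of 98.3% of its length from the start, whereas its listed CpGs lay at a median of 63.9%. The same gene held 200 CpGs at 10% or less in every library, so both extremes lay within its bounds. Fat1, an atypical cadherin, had 27 of 258 (chr8:44933100-45052257), beside 118 low ones. Zfp865, a zinc finger gene of 12851 bp, had 27 of 190 (chr7:5020376-5033226), or 210.1 per 100 kb, the densest of the 20 genes. Slc39a11, a zinc transporter of the ZIP family, had 27 of 456 (chr11:113244851-113650200), of which 10 lay beyond its midpoint.

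Of the rest of the 20, Cit, which encodes citron kinase of cell division, had 25 of 236, and Cmip had 25 of 302. Plcg2, a phospholipase that acts below immune receptors and is expressed by microglia, had 20 of 163, of which 17 lay beyond its midpoint. Itpr3, an inositol trisphosphate receptor that releases calcium from the endoplasmic reticulum, had 18 of 191, and Agap1, a GTPase-activating protein for Arf proteins, had 23 of 591. Kif13a, a kinesin motor, had 20 of 206 and Acacb, an acetyl-CoA carboxylase, 20 of 210, of which 6 lay beyond its midpoint. Vps13b, a lipid transfer protein, had 18 of 115.

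Camta1, a calmodulin-binding transcription activator, had 21 of 807, with 7 beyond its midpoint, Atxn1, the gene of ataxin 1, had 24 of 277, and Setbp1 had 22 of 255. Arid5b, a DNA-binding protein, had 18 of 136, at a median of 97.3% of the gene's length from its start. Bahcc1 had 18 of 402, all beyond its midpoint, while its listed CpGs lay at a median of 7.23% of its length and 243 of them were low. Of the 14 of these genes with a known strand, the median position of the class was farther from the start than that of the listed CpGs in 11, and not in Slc39a11, Camta1 and Acacb. Over the 20 genes and 20 libraries, the lowest mean of a gene's near-fully methylated CpGs was 95.2%, in Plcg2.

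By share, with at least 30 listed CpGs required of a gene, the zinc finger genes Zfp334, Rbak and Zfp7 were among the first 10. The predicted gene LOC108167320 (chr9:124441680-124442903) had 15 of 30 (50%). L3mbtl2, a member of a Polycomb-type repressor complex, had 13 of 40 (32.5%), Pskh1, a serine kinase, 12 of 40 (30%) and Zfp334 17 of 60 (28.3%). Ctu1, an enzyme of transfer RNA thiolation, had 24.6%, Rbak 22.6%, Zfp7 21.6%, Spidr 21.2%, Polr3a, the largest subunit of RNA polymerase III, 21.1%, and Kntc1, a kinetochore protein, 20.6%. Pskh1 held 12 low CpGs beside its 12 near-fully methylated ones.

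At the opposite end, 88 of 348 named protein-coding genes with at least 200 listed CpGs held none of the class. Among the first of these in genome order were Tns1, Inhbb, Gata3, Prdm12, Lmx1b, Lhx2, Nr4a2, Rbms1 and Hoxd3. Of these, Gata3, Prdm12, Lmx1b, Lhx2, Nr4a2 and Hoxd3 encode transcription factors of development. Prdm12 averaged 3.26% over 308 listed CpGs, Hoxd3 5.76% over 259 and Tns1, the gene of tensin 1, 38.4% over 243.

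Gene lists were compared by counts beside the share over all protein-coding genes, where 11816 of 792017 listed CpGs (1.49%) were near full methylation. No set test was run. Germline and early embryo genes had the highest share of the lists of gene classes, with 30 of 874 CpGs (3.43%) in 15 of 40 genes. Their next-tier share was 17.6%, against 7.74% over all protein-coding genes, so the higher share was not particular to the class. Sohlh2, a transcription factor of germ cells, had 5 of 44, Spo11, which makes the double-strand breaks of meiosis, had 4 of 19, and Dazl, an RNA-binding protein of germ cells, had 4 of 71. Dpep3 had 3 of 5 and Tdrd1, a tudor protein of the piRNA pathway, 3 of 23. The list averaged 61.9% over its CpGs, against 25.6% over all protein-coding genes. Genes of the list without any of the class included Zar1, at 2.84% over 31 CpGs, and Meioc, at 48.0% over 47.

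Collagen and basement membrane genes had 62 of 2755 (2.25%) in 17 of 28 genes, led by Hspg2, the gene of perlecan, with 10, then Col18a1 with 7 and Col13a1 with 6. DNA methylation machinery genes had 29 of 1406 (2.06%) in 11 of 17 genes, with 6 in Zbtb38, a protein that binds methylated DNA, and 4 each in Tet1 and Tet2, which oxidise methylated cytosine. Imprinted genes had 27 of 1698 (1.59%) in 7 of 29 genes, 12 of them in Trappc9 and 4 each in Peg10 and Rtl1. Imprinted genes are known for control regions methylated on 1 parental copy, and the list averaged 32.4%. The next tier made up 17.4% of the collagen list, 11.4% of the methylation machinery list and 7.13% of the imprinted list.

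Long synaptic and neuronal genes had 81 of 6694 (1.21%) in 20 of 30 genes, with 21 in Camta1, 11 in Ank3, an ankyrin of the axon initial segment, and 6 each in Cacna1c and Lrp1. Chromatin enzyme genes had 44 of 4023 (1.09%) in 16 of 29 genes. The next tier made up 9.37% of the synaptic list and 9.32% of the chromatin list. Clustered Hox genes, which pattern the body axis, had 0 of 2743 in 39 genes, and no CpG of the next tier either. Their listed CpGs averaged 4.03%, and 60.2% of them were at 10% or less in every library.

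Markers of the cell types that the homogenate could hold had shares from 0.215% to 2.03%, beside 1.49% over all protein-coding genes. Microglial markers had 1 of 466 (0.215%), in the purinergic receptor gene P2ry12. Neuronal markers had 3 of 883 (0.340%), all in Rbfox3, astrocyte markers 1 of 257 (0.389%), in Slc1a3, and oligodendrocyte lineage markers 2 of 542 (0.369%), in Cspg4. Vessel markers had 9 of 443 (2.03%), with 6 in Vwf, the gene of von Willebrand factor, and 3 in Pecam1, and markers of other leukocytes had 1 of 69 (1.45%), in Mrc1. The mean percent over the listed CpGs was 33.4% for microglial, 33.1% for neuronal, 37.0% for astrocyte and 35.2% for oligodendrocyte markers. These values do not separate the labelled microglia from the other cell types, and methylation alone was no check of the enrichment.

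Of 11844 promoter windows with a listed CpG, 45 (0.380%) held a CpG of the class, and 18 of the 45 belonged to protein-coding genes, out of 9830 such windows (0.183%). None of the 45 held a CpG at 10% or less in every library, whereas 10380 of the 11844 windows did. The 45 windows had a median of 10 CG dinucleotides and 56.3% GC, against 23 and 63.7% over the windows with a listed CpG. The 210 windows with a next-tier CpG and none of the class were alike in this, with a median of 8 CG dinucleotides, 53.7% GC and no CpG at 10% or less in every library. Searched on both strands, the letters CCGG, the site of the MspI enzyme commonly used in RRBS, covered 47.5% of the CpGs of the class in windows, 45.0% of the next tier and 19.06% of all listed CpGs there. The letters were found in all 45 windows and in 99.7% of the windows with a listed CpG. The coding windows with the most such CpGs were those of Jade1, Tuba3a, Tuba3b and Taf1c with 3 each, then Btbd18, Ctnnd1, Dnajc5g, Slc30a3 and Ube2d2b with 2 each, and 9 more held 1 each.

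Btbd18, which is needed for piRNA production in the male germline, and Ctnnd1, the gene of p120 catenin, start in opposite directions 102 bp apart and share the stretch printed above. Its first marked CG, 79 bases before the Btbd18 start, read 100% in all 20 libraries. The other, 29 bases before that start, read 97.5%, 98.3%, 98.5% and 100% in the 4 WT libraries at 13 months and 98.4%, 99.0%, 99.1% and 99.1% in the 4 HEM libraries at 3 months. In the 4 WT libraries at 3 months it read 92.8%, 100%, 100% and 100%, and in the 8 HEM libraries at 13 months it ran from 95.1% through a median of 97.5% to 100%. The ranges of the groups overlapped, within the limits the rule sets. A CG between these, 52 bases before the start, was no member. It read 92.0% to 96.8% in the 8 libraries of 3 months, but 3.33% to 96.1% in the 12 libraries of 13 months. Of those 12, HEM replicate 8 stood at 3.33%, and 6 libraries lay between 44.6% and 54.2%. This CG is among those given under other observations that averaged under 80% at 13 months. Whether its percentages are methylation or strain sequence was not tested, and age cannot be told apart from the deposited set.

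Dnajc5g, a gene of the DnaJ chaperone family, starts opposite to Slc30a3, a zinc transporter of synaptic vesicles. The CG at its start averaged 96.6% (93.3% to 100% over the libraries) and the CG 6 bases after it 96.2% (92.2% to 100%). The remaining 6 listed CpGs of its window averaged 83.3% to 93.7%, so the window as a whole was highly methylated with these CpGs at its upper end.

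Asz1, which acts in the piRNA pathway of the testis, had a member 36 bases before its start. It read 93.9%, 97.1%, 100% and 100% in WT at 3 months, 96.3%, 98.3%, 100% and 100% in HEM at 3 months, and 96.2%, 100%, 100% and 100% in WT at 13 months. In HEM at 13 months it ran from 95.7% through a median of 98.6% to 100%. The rule fixed each of these values at 90% or more. The other 11 listed CpGs of the window averaged 73.4% to 94.99%.

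Dazl had a member 43 bases after its start. It read 94.9%, 100%, 100% and 100% in WT at 3 months, 93.5%, 93.6%, 100% and 100% in HEM at 3 months, 90.2%, 96.7%, 97.1% and 100% in WT at 13 months, and 93.3% to 100% in HEM at 13 months. The Dazl window averaged 94.1% over its 8 listed CpGs, while 37 of the 71 CpGs listed in its gene body were at 10% or less in every library. Among germline genes 2 of 15 windows held a CpG of the class, those of Asz1 and Dazl. The 15 windows, of 14 genes, had a median level of 83.8%, and 8 averaged 80% or more, against 2.96% of all windows with a listed CpG. No window of the other gene lists or the cell type markers held one, where the share over all coding windows was 0.183%.

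Jade1, a scaffold of a histone acetyltransferase complex, had the C and the G position of 1 CG, 15 and 14 bases before the start, at 97.9% and 97.3%, and a further CpG 35 bases after it at 95.8%. The values at 15 and 14 bases before the start are 2 listings of 1 CG. Taf1c, a subunit of the factor that selects ribosomal RNA promoters for RNA polymerase I, had CpGs at 96.0%, 96.9% and 96.4%, of which the last lies in the stretch printed, 43 bases before the start. Tuba3a and Tuba3b are near-identical alpha-tubulin genes, so reads could be placed at either, and their values are uncertain.

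Of 919 autosomal microRNA hairpins, 104 held a listed CpG and 4 held a CpG of the class. Mir702 had 4 of its 5 listed positions in the class, of which 2 are the C and the G of 1 CG, and these averaged 97.0%, between 90.9% and 100% over libraries. Mir433, of the imprinted Dlk1 to Meg3 region, had 1 of 4, at 95.2%, and Mir7677 had its only listed CpG, at 96.5%. The remaining hairpin, of the predicted gene Gm51294, had 1 of 3, at 98.4%.

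Chromosomes differed in how much of the class they carried. The share of listed CpGs was lowest on chromosomes 19 (1.32%), 11 (1.37%) and 2 (1.42%) and highest on 13 (2.16%, 971 of 44859), 18 (2.15%), 3 (2.13%) and 10 (2.11%). The remaining autosomes lay between 1.67% and 1.99%: 1 at 1.98%, 4 at 1.67%, 5 at 1.80%, 6 at 1.99%, 7 at 1.70%, 8 at 1.81%, 9 at 1.67%, 12 at 1.83%, 14 at 1.76%, 15 at 1.89%, 16 at 1.99% and 17 at 1.70%. The next tier was likewise lowest on chromosomes 19 (7.42%), 11 (7.42%) and 2 (7.91%) and highest on 10 (10.6%) and 18 (10.5%). Mostly the same chromosomes stood at the ends in single libraries, but their order varied. Chromosome 11 was lowest in 12 libraries and 19 in 8, and chromosome 18 was highest in 12 and 10 in 8. Chromosomes 2, 11 and 19 were the 3 lowest in the share of CpGs at 90% or more in 20 of 20 libraries. Chromosomes 10 and 18 were among the 4 highest in 20 of 20, chromosome 3 in 18 and chromosome 13 in 15. The mean share per library was 11.4 ± 0.670% on chromosome 11 and 15.8 ± 0.804% on chromosome 18 (SD, n = 20). Over the 19 autosomes the share of the class had a Spearman correlation of -0.558 with the median number of listed CpGs within 100 bp. That median was 7 or 8 on every autosome. Whether density is a source of the order was not tested.

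**Figure D5:**
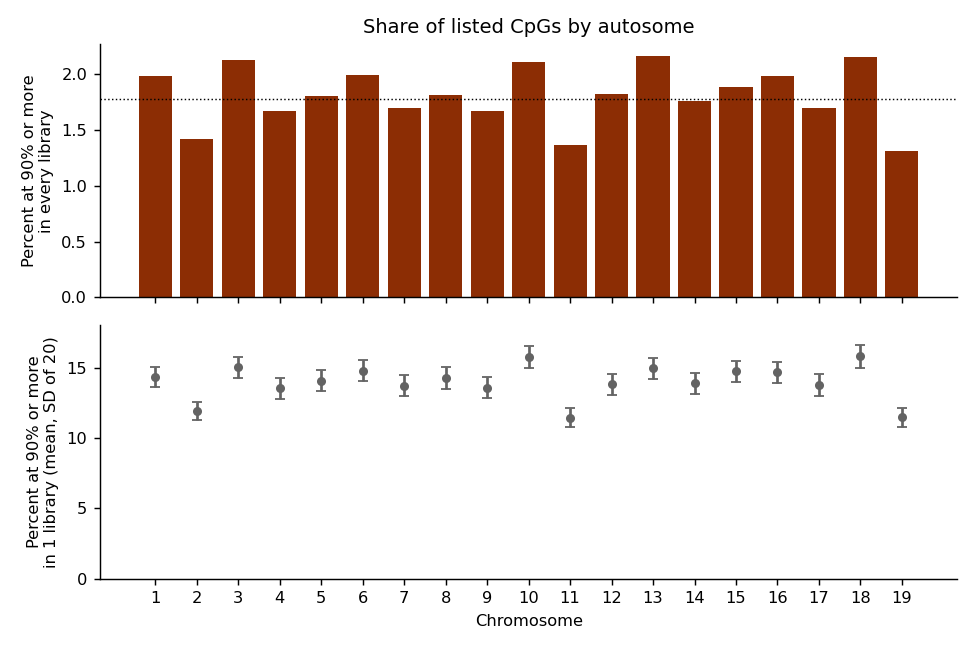
Percent of listed CpGs near full methylation by autosome. The upper panel shows the share at 90% or more in every library, with the dotted line at the share over all autosomes (1.78%); the lower panel shows the share at 90% or more in 1 library, as mean and SD of 20 libraries. Chromosomes 2, 11 and 19 stand lowest in both panels.

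Locally the CpGs sat in methylated surroundings. The 34452 other listed CpGs within 100 bp of them had a median level of 93.1%, and 93.3% of these averaged 80% or more, while the median over all CpGs outside the class was 1.21%. Another CpG of the class lay within 100 bp for 6194 of the 19697 (31.4%). Where 2 adjacent positions stood alone as a pair, mostly the strands of 1 CpG, both were in the class in 501 pairs and only 1 in 1284. In those 1284 the partner had a median level of 95.9%, and 89.9% of partners were at 80% or more in every library.

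Unbroken runs were short. Taken along the listed CpGs, 14416 of the class (73.2%) had no direct neighbour in it. The longest run was 8 CpGs in Atp23, over 2074 bp (chr10:126887652-126889726), with a mean of 98.6%. Stau2, an RNA-binding protein of dendritic transport, had 7 over 21870 bp, and Psmd12, a subunit of the proteasome, had 7 within 27 bp. There were 6 runs of 6 CpGs, of which those in Etl4 and Afg3l1 come first in genome order. Of 153217 tiles of 1000 bp with a listed CpG, 14666 (9.57%) held a CpG of the class and 151 held at least 5. The tiles with the most were in Zfp334 (15 of 29, chr2:165381001-165382000), in Srsf4, a splicing factor gene (15 of 55, chr4:131900001-131901000), and in Zfp629 (15 of 31, chr7:127611001-127612000). A tile 2605 bp from Atad2b had 13 of 22 (chr12:5050001-5051000), and one in Pskh1 had 12 of 28 (chr8:105913001-105914000). The mean over all listed CpGs of these 5 tiles was at least 93.8% in every library.

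There were 13 CpGs at exactly 100% in every library. Besides that at Btbd18 they lay in Zmynd8, Ahdc1, Actr3b, Selenow, Plekha7, Tnpo2, Tle3, Rnf145, Rufy1, Kcnk12 and Impa2, and 622045 bp from Lrrc4c. The other listed CpGs within 100 bp of each averaged 83.8% to 95.4%, and none of those neighbours was also at 100% throughout.

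To compare the genotypes on values that did not choose the CpGs, the class was drawn at 1 age and read at the other. Choosing on the 12 libraries of 13 months gave 34257 CpGs, of which 57.5% were also at 90% or more in every 3-month library. Choosing on the 8 libraries of 3 months gave 41741, of which 47.2% also passed at 13 months. Read at the age not used, the first set averaged 95.8% and the other 95.6%, and 99.3% and 98.9% of the CpGs averaged 90% or more. The ages were deposited as separate sets with different listed CpGs, so age and set cannot be told apart.

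At 13 months the CpGs chosen at 3 months averaged 95.5 ± 0.283% in HEM (SD, n = 8) and 95.7 ± 0.164% in WT (n = 4). The difference of -0.164 points did not pass a two-sided exact permutation test (p = 0.339, adjusted p = 0.771 over 6 tests by Benjamini-Hochberg). HEM libraries ran from 94.9% to 95.9% and WT libraries from 95.5% to 95.9%, so the groups overlapped. The share of those CpGs at 90% or more was 91.7 ± 2.10% in HEM and 91.2 ± 0.437% in WT (exact permutation adjusted p = 0.819).

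At 3 months the CpGs chosen at 13 months averaged 95.9 ± 0.140% in HEM and 95.7 ± 0.120% in WT (n = 4 each), a difference of 0.118 points (exact permutation p = 0.257, adjusted p = 0.771). The share at 90% or more was 92.4 ± 1.07% in HEM and 91.6 ± 1.77% in WT (exact permutation adjusted p = 0.771). A further comparison used CpGs listed at 1 age only, which cannot be in the class, within 100 bp of it. The class was chosen on the same libraries, so this comparison is not wholly free of the rule. At 13 months 274 CpGs listed at that age only averaged 89.1 ± 0.772% in HEM and 88.7 ± 0.983% in WT (exact permutation adjusted p = 0.771). At 3 months 1337 averaged 89.9 ± 0.226% and 89.9 ± 0.392% (exact permutation adjusted p = 1). The smallest p these designs allow is 0.00202 at 13 months and 0.0286 at 3 months, before adjustment. Adjusted together with the p-values found at 13 months, no 3-month test could have passed, even with every 3-month p at 0.0286. The 3-month tests therefore cannot decide whether the genotypes differed at that age. Whether the genotype difference itself differed between ages was tested by permuting genotypes within age, with adjusted p of 0.380, 0.842 and 0.676 for the mean, the share and the nearby CpGs. A p that misses the threshold does not show that the groups were alike.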

How the data were processed

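Percent methylation per CpG was measured in 20 libraries. The deposited files give percent values only. The submitters' processing notes name methylKit, Bowtie2 and the mm10 build. Tool versions, the coverage filter and read depth are not given in the sources used here, so no counting interval could be given. A series table for each age was not used. Groups came from the labels.

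CpGs on chromosomes 1 to 19 listed at both ages were kept if column 4 was at least 90 in all 20 libraries. Adjacent positions were counted apart. Genes, promoter windows and hairpins came from RefSeq tables on GRCm38.p6, with no windows for chromosome 18 and no strand for some genes. Python 3.11.15 with numpy 2.4.6, pandas 2.3.3 and scipy 1.17.1 was used. Genotype tests used values that did not choose a CpG, with two-sided exact permutation over libraries and Benjamini-Hochberg adjustment over 6 tests. The nearby CpGs among them lay beside CpGs chosen on the same libraries. The functions were tested on simulated data.

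Genes named are protein-coding with symbols other than Gm or Rik ones: the 20 with most such CpGs, the 10 of highest share with at least 30 listed CpGs, the 10 of lowest share with at least 200, the top 3 of each list, and the 5 longest runs, 5 fullest tiles and 10 fullest promoter windows. Other names were chosen after their values were seen. A few items that the rule names are not reported here. The CpGs and lists were chosen with earlier results of these data known. Alternatives changed the threshold, age set, gene bounds, window, adjacent positions, replicate block and each library.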

Additional observations from a re-analysis of the deposited data

Results flagged for a closer look

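In WT at 3 months, replicate 4 averaged 96.7% over the 19697 CpGs, below the other 3 libraries at 96.87% to 96.89%. In HEM at 3 months, replicate 7 averaged 89.6% over the CpGs listed at 3 months only within 100 bp of the class, below the other 3 at 90.01% to 90.1%. Each stood apart because its gap to the nearest library took up most of its group's range. Such gaps were sought in 32 groups of values and found in 2, where chance alone gives about 1 in 20 for values free of any rule. Many of the groups, among them the WT one here, hold values that the rule used. Their gaps are a description and no test.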

How the results depend on the processing

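The number of CpGs followed the threshold: 121593 at 80%, 677 at 95% and 13 at 100%. It was 34257 on 13-month libraries only, 41741 on 3-month libraries only, and 20138 to 21288 with each library left out. The share in genes was 70.9% at the 95% threshold, 84.6% at 100%, 69.5% with genes widened by 1000 bp, 59.99% for protein-coding genes only, and 67.3% to 67.7% with each library left out. The median number of listed neighbours was 6 at the 100% threshold, 4 within 500 bp, and 2 with any library left out. No genotype difference passed under any of the 86 alternatives of the 6 tests (lowest adjusted p by exact permutation 0.514), but several changed sign, and the cause was not tested. The 3-month alternatives and those by replicate block had too few libraries to pass after adjustment, whatever the difference. At 13 months the share at 90% or more became -0.466 points at a 95% threshold, and the nearby CpGs became -0.189 at 80% and -1.28 at 95%. At 3 months the nearby CpGs became 0.0283 at 80%, 0.309 at 95% and 0.00697 within 500 bp. With each library left out the 13-month differences ran from -0.222 to -0.0791 for the mean, 0.0960 to 0.951 for the share and -0.0994 to 0.651 for the nearby CpGs, the last below 0 without WT replicate 7. The 3-month ones ran from 0.0644 to 0.179, 0.151 to 1.57 and -0.149 to 0.184, the last above 0 without HEM replicate 7 or WT replicate 5. The replicate block used only libraries whose number occurred in both genotypes: 1, 6 and 7 at 13 months, and 1 and 3 at 3 months. On these fewer libraries the 13-month mean became 0.103 and the 3-month nearby CpGs 0.347 points, and the other 4 results kept their sign. For same-numbered libraries of the 2 genotypes, the deviations of CpGs from their group means were correlated, over CpGs away from either extreme. These correlations were 0.105, 0.231 and 0.0504 at 13 months and 0.0556 and -0.124 at 3 months. They concern the deviations and not the levels themselves. As not every pair exceeded 0.1, the block was not taken as a pairing. At 13 months the deviations of each of the 3 numbers correlated best with its own, a hint from the data and not the design. Depth is unknown and its effect on values near 100% could not be measured.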

Other observations

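The class drawn on the 3-month libraries held 38 CpGs that averaged under 80% at 13 months, 3 of them under 50%, whereas of the 34257 CpGs drawn on the 13-month libraries none averaged under 80% at 3 months (lowest 82.2%). Of the 38, 17 lay on chromosome 4 between 128452565 and 149495768, 7 on chromosome 2, 5 within Sfi1 on chromosome 11, and the rest on chromosomes 1, 3, 9, 17, 18 and 19. The genes around the chromosome 4 CpGs included Csmd2, Phc2, Ahdc1, Ephb2, an ephrin receptor, Hspg2, Ddost, Mul1, Otud3, Arhgef10l, Crocc, Tmem51, Masp2 and Lzic. These genes were named after their values were seen.

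Over the 17 CpGs of chromosome 4 the median of a library was 94.0% to 96.7% in the 8 libraries of 3 months. At 13 months it was 3.67% in HEM replicate 13, 51.4%, 48.3%, 52.7% and 45.7% in HEM replicates 1, 7, 8 and 11, and 94.1%, 93.4% and 95.5% in HEM replicates 3, 6 and 10. In WT at 13 months it was 92.0%, 96.5%, 50% and 89.9% in replicates 1, 2, 6 and 7. Libraries of both genotypes thus stood near 50% and above 89%, while 1 HEM library stood near 0. All 17 CpGs were under 50% in HEM replicate 13. On the other chromosomes the 21 CpGs ordered the libraries differently: HEM replicate 13 had a median of 59.5% there and HEM replicate 8 the lowest, at 36.0%. Bisulfite reads do not tell an unmethylated C from a T in the genome, and no genotypes were used here, so whether these percentages are methylation or strain sequence was not tested.

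Outside the autosomes, 420 of 23200 CpGs listed on the X chromosome (1.81%) were at 90% or more in every library, close in size to the 1.78% of the autosomes. On the Y chromosome 49 of 849 (5.77%) were, and on mitochondrial DNA 0 of 39, with a mean of 0.115%.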
